A study of Mus musculus with 8 samples.

Results

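Photoreceptors are made and kept by a small network of transcription factors, and 10 of its genes were followed here in the detached mouse retina. The homeodomain factor Otx2 commits precursors to the photoreceptor fate, and its relative Crx switches on the genes of both rods and cones. The leucine zipper factor Nrl and the nuclear receptor Nr2e3 turn a precursor into a rod and hold cone genes down, while the thyroid hormone receptor Thrb and the retinoid X receptor Rxrg act in cones. Rorb, Neurod1, Esrrb and Mef2d complete the set. The 10 genes were taken by symbol, as 10 of 56465 features in the deposited table, in which each of these 10 symbols occurs once.

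RNA was sequenced from 8 mouse retinas of the C57Bl/6J background, 4 from mice expressing human transferrin (TG 2, TG 5, TG 6 and TG 8) and 4 from wild-type mice (WT 3, WT 4, WT 5 and WT 7). Transferrin is the iron carrier of blood plasma, and the study asks what it does during retinal detachment. Every retina, WT included, had been detached by injecting 10 µl of sodium hyaluronate under it and was collected at day 4, so no attached retina enters the comparison. TG 2, TG 5, WT 3, WT 4 and WT 5 were males, TG 6, TG 8 and WT 7 females, and TG 2, TG 6 and WT 7 were left eyes. The sources used here do not give the age of the mice, the promoter of the transgene or whether each retina came from its own mouse. The p-values therefore speak for the spread among these 8 samples, which may in part be technical. Each group held males and females, so neither came from a single mouse.

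Libraries held 61535690 to 75866423 counted reads. A list of 22 rod genes, which mark the tissue, summed to 6120432 to 9493110 normalized reads in the TG libraries and to 6802356 to 7798302 in the WT libraries, so all 8 libraries carried rod RNA. WT 3, TG 6 for lens genes and TG 2 for pigment epithelium genes stood apart in RNA of neighbouring tissues. Summed lens genes reached 21501 normalized reads in TG 6 and 25833 in WT 3, with 5528 in TG 5 and 39.1 to 804 in the others. Summed pigment epithelium genes reached 98350 in WT 3, 43397 in TG 2 and 22741 in TG 6. Summed myelin genes reached 12890 in WT 3. No TG to WT difference of the 10 genes passed with those libraries in or out.

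**Figure D1:**
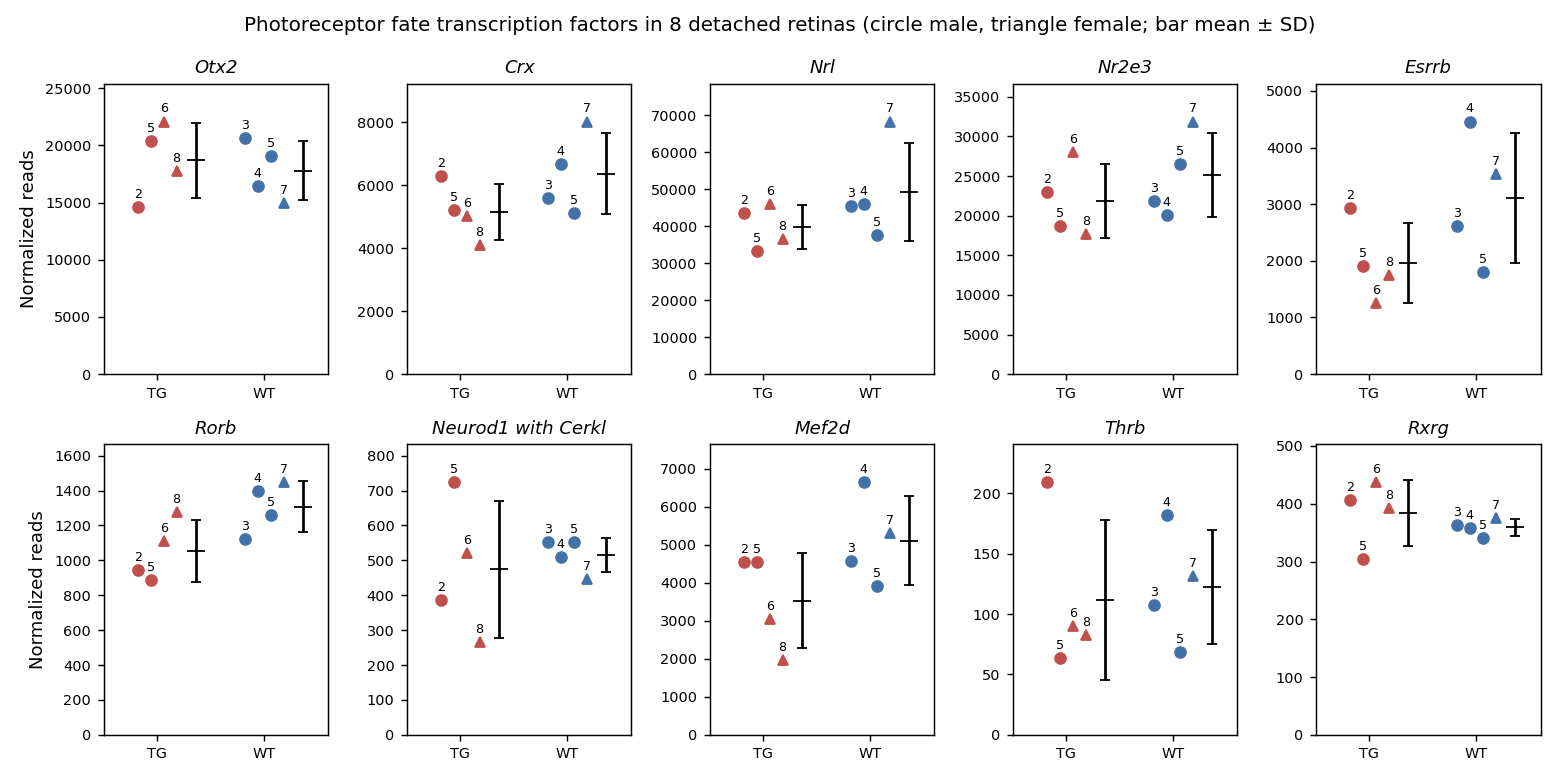
Normalized reads (vertical axis, from 0) of the 10 genes in the 4 TG and 4 WT libraries, numbered by replicate, with circles for males, triangles for females and bars for the mean ± SD. The groups overlap in every panel, and WT 7 is the highest library for Crx, Nrl, Nr2e3 and Rorb.

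The promoters of 3 genes are shown. Crx was taken because it carries the binding word of its own protein beside its start site. Esrrb and Mef2d had the lowest p-values of the set and do not carry that word in the window searched. They come from RefSeq (GRCm38.p6), run 5′ to 3′ on the gene's strand up to the annotated start site and stop before any annotated exon. Capitals mark TAATCC, the word that Crx and Otx2 bind, here read on the opposite strand as GGATTA. The Crx promoter is chr7:15879969-15880205 (minus strand), that of Esrrb chr12:86360867-86361116 (plus strand) and that of Mef2d chr3:88142122-88142371 (plus strand).
Crx: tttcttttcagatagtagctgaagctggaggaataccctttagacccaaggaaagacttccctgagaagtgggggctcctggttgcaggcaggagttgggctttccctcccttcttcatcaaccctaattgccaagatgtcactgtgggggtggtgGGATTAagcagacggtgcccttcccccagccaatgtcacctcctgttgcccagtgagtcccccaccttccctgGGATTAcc
Esrrb: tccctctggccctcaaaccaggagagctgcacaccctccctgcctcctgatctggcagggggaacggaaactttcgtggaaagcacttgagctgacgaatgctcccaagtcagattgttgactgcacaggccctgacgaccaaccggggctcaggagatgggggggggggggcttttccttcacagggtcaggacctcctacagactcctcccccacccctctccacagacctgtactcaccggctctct
Mef2d: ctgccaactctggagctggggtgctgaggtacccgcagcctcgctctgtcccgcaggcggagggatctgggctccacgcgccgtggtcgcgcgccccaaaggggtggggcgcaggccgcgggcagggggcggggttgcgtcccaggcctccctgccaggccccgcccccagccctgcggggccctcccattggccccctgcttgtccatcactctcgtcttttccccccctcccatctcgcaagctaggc

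In windows of 250 bases before the start site, TAATCC was searched on both strands and found in 1 of the 10 genes, Crx, and in 6.25% of 32851 promoter windows of mouse genes. The 2 Crx matches begin 94 and 21 bases before the start site. TGCTGA, a Maf half-site of the kind Nrl binds, was present before Rorb, Neurod1 and Mef2d, 3 of the 10 genes, and in 16.1% of all windows. CAGATG, a word bound by Neurod1, was present before 1 of the 10 genes, Nrl, and in 14.4% of all windows. The nuclear receptor half-site AGGTCA was in 0 of the 10 and in 14% of all windows. The Mef2 word, CTA and TAG with 4 bases of any kind between them, was in 0 of the 10 and in 3.2% of all windows. Only 1 window of each gene was searched, while Otx2 has 4 and Rorb, Esrrb, Thrb and Rxrg have 2 each. The matches before Nrl and Neurod1 lie in a part of the window that begins with an annotated exon. For Nrl, Nr2e3 and Thrb the window used lies 730, 10582 and 154751 bases inside the end of the deposited feature, at the nearest start site RefSeq lists. None of these words overlaps another of them in the 10 windows.

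To compare genes, normalized reads were divided by the length of the longest transcript that GENCODE M21 lists, which makes each level approximate. Nrl had a median of 8965 normalized reads per kilobase over the 8 libraries (range 6680 to 13725), Nr2e3 had 8358 (6603 to 11872) and Otx2 had 7114 (5625 to 8523). These 3 ranges overlap, so their order is not settled. Crx came next at 1850 (1406 to 2748), below all of them in every library. Mef2d stood at 841 (364 to 1231) and Esrrb at 526 (292 to 1037), with overlapping ranges. The cone factor Rxrg lay at 175 (144 to 207) and Rorb at 128 (95.2 to 156), which overlap too. Thrb was lowest at 15.9 (10.2 to 33.7). Neurod1 has no place in this order, because the deposited table joins it with Cerkl, the ceramide kinase-like gene in whose span it lies.

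**Figure D2:**
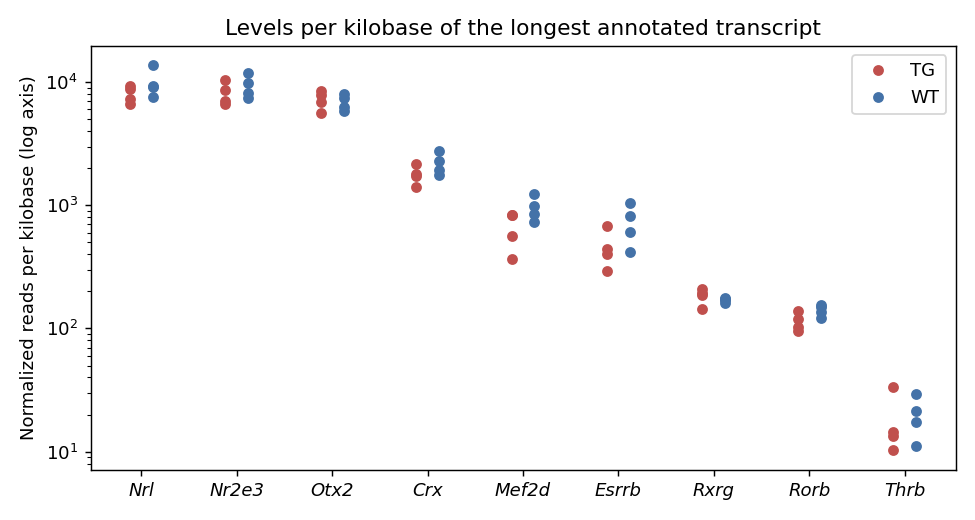
Normalized reads per kilobase of the longest annotated transcript (log axis) for 9 of the 10 genes, 1 point per library, TG left of WT for each gene. Nrl, Nr2e3 and Otx2 share the top, with medians from 7114 to 8965, and Thrb is at the bottom with 15.9.

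None of the 10 genes differed between TG and WT retinas past an adjusted p of 0.05 (limma), a threshold that 0.0101% of the 19798 features tested passed. None passed with edgeR either (0.0101% of features) or with DESeq2 (0.081%). All 10 genes were among those tested. Their log2 fold changes, on the log2(normalized reads + 1) scale and as TG minus WT, ran from -0.65 to 0.088, with standard errors from 0.15 to 0.43. Of the 10, 8 lay below 0 and 2 above, with a median of -0.25. Over all features tested, 52.2% lay below 0 and the median was -0.017. The unadjusted p was under 0.05 for 2 of the 10, Esrrb and Mef2d, against 4.64% of all features. The TG and WT values overlapped for all 10, while the groups did not overlap for 2.53% of all features. In whole retina, fewer photoreceptors and less of a transcript per photoreceptor cannot be told apart.

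**Figure D3:**
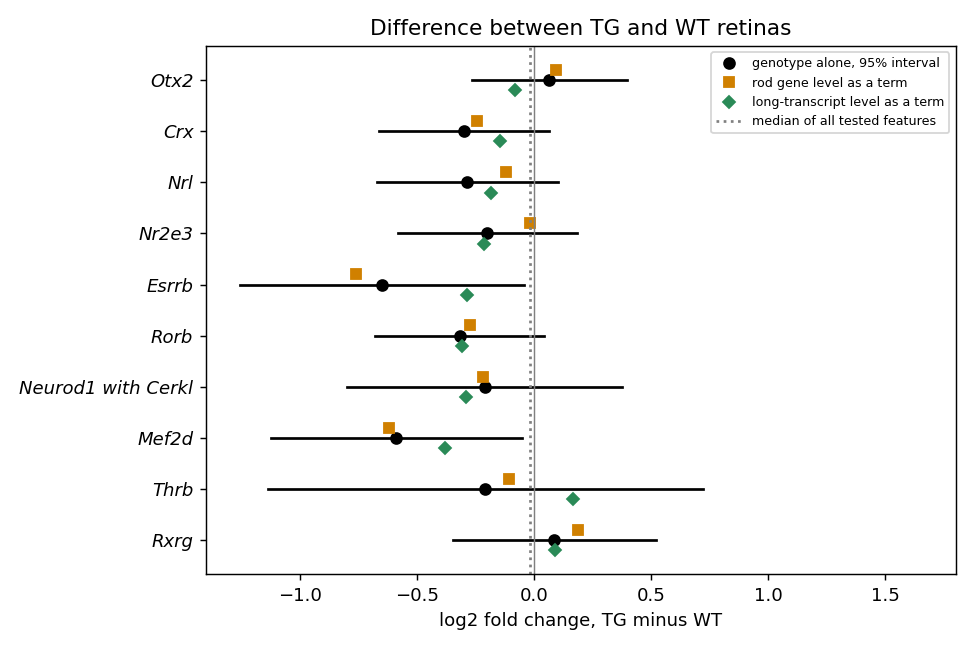
Log2 fold change (TG minus WT) of the 10 genes with its 95% interval (black), and the same value with the rod gene level (orange) or the long-transcript level (green) of each library as a further term. The intervals of Esrrb and Mef2d end just below 0, the other 8 include it, and the green points of Otx2 and Thrb lie on the other side of 0.

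Otx2 sits at the head of the network and also stays on in bipolar cells and pigment epithelium. Its feature spans chromosome 14 from 48657679 to 48667644 on the minus strand (mm10). It had 14581, 20403, 22091 and 17761 normalized reads in TG 2, TG 5, TG 6 and TG 8, against 20658, 16419, 19117 and 14982 in WT 3, WT 4, WT 5 and WT 7. The 2 sets of values are interleaved, with the lowest and the highest both in TG. Its log2 fold change was 0.066 ± 0.15 (SE, n = 4 each; 95% interval -0.27 to 0.40; adjusted p = 0.97, limma). The direction is not settled, since the value was 0.18 without TG 2, -0.019 without TG 6 and -0.013 without WT 7. It was -0.11 with males only (2 TG and 3 WT libraries) and 0.072 with sex as a term.

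Markers of the other cells that carry Otx2 were read beside it. Of 12 bipolar cell genes, 9 lay above 0 and 0 passed, and their summed level was 33240 to 58285 normalized reads in TG and 31704 to 39981 in WT. Of 11 pigment epithelium genes, 6 lay above 0 and 0 passed, with sums of 6891 to 43397 in TG and 4256 to 98350 in WT. The pigment cell genes Tyr, Mlana and Mitf were at 0 in TG 8 and above 0 in the other libraries. Mitf was scarce there too, with 57.1 normalized reads at most. The other genes of the list were above 0 in every library, and Best1 had 53.7 normalized reads in TG 8. The part of these cells in the Otx2 level was not tested.

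Crx, the homeodomain activator shared by rods and cones, lies on chromosome 7 from 15865948 to 15879955. It had 6276, 5201, 5028 and 4103 normalized reads in TG 2, TG 5, TG 6 and TG 8, against 5601, 6686, 5126 and 8021 in WT 3, WT 4, WT 5 and WT 7. TG 6 and TG 8 lay below all WT libraries, and WT 4 and WT 7 above all TG libraries. For Crx the log2 fold change was -0.30 ± 0.17 (SE, n = 4 each; 95% interval -0.66 to 0.06; adjusted p = 0.92, limma). It ran from -0.40 without TG 2 to -0.18 without WT 7, the highest library. With males only, which leaves out TG 6, TG 8 and WT 7, it was -0.014, and with sex as a term -0.30.

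Rorb, an orphan nuclear receptor that acts ahead of Nrl, also works in horizontal and amacrine cells. It lies on chromosome 19 from 18930609 to 19111196. It had 947, 885, 1111 and 1280 normalized reads in TG 2, TG 5, TG 6 and TG 8, against 1122, 1400, 1261 and 1448 in WT 3, WT 4, WT 5 and WT 7. Of the TG libraries, 3 lay below every WT library, and TG 8 lay within the WT range. Genotype gave a log2 fold change of -0.32 ± 0.17 (SE, n = 4 each; 95% interval -0.68 to 0.04; adjusted p = 0.92, limma) which ran from -0.41 to -0.24 when 1 library was left out. This value was -0.46 with males only, further from 0, and -0.39 with sex as a term. Of 11 amacrine and horizontal cell genes, 9 lay above 0 and 0 passed, and their sums were 25818 to 48390 in TG and 20362 to 32833 in WT. Their part in the Rorb level was not tested.

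Neurod1, a helix-loop-helix factor that photoreceptors need to survive, could be read only together with Cerkl, on chromosome 2 from 79331765 to 79456636. The joint feature had 386, 724, 521 and 266 normalized reads in TG 2, TG 5, TG 6 and TG 8, against 553, 509, 552 and 447 in WT 3, WT 4, WT 5 and WT 7. The TG values spread on both sides of the narrow WT range, with a coefficient of variation of 41.4% in TG and 9.61% in WT. The log2 fold change of -0.21 ± 0.27 (SE, n = 4 each; 95% interval -0.80 to 0.38; adjusted p = 0.94, limma) ran from -0.44 without TG 5 to 0.035 without TG 8. This value was -0.025 with males only and -0.11 with sex as a term. Another 3 features with a mean of at least 10 overlap this span, among them Itga4 with 355 normalized reads on average in TG and 336 in WT. Reads shared with them could not be assigned, because the sources used here do not say whether the counting used strand.

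Mef2d, a MADS-box factor that binds photoreceptor genes together with Crx, lies on chromosome 3 from 88142372 to 88172090. It had 4544, 4540, 3059 and 1969 normalized reads in TG 2, TG 5, TG 6 and TG 8, against 4581, 6646, 3917 and 5312 in WT 3, WT 4, WT 5 and WT 7. TG 6 and TG 8 were below every WT library, and 3 WT libraries were above every TG library. Its mean was 3528 ± 1253 in TG and 5114 ± 1170 in WT (SD, n = 4 each). The log2 fold change was -0.59 ± 0.25 (SE; 95% interval -1.12 to -0.05; unadjusted p = 0.034, adjusted p = 0.92, limma). It ran from -0.74 without TG 2 to -0.33 without TG 8. With males only, which leaves out TG 6, TG 8 and WT 7, it was -0.12, and with sex as a term -0.47. The feature overlaps 1700113A16Rik, which had 17.6 to 55.6 normalized reads in TG and 6.44 to 36.1 in WT.

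The rod branch begins with Nrl, whose loss in mice turns rods into cells like blue cones. It lies on chromosome 14 from 55518978 to 55524982. Nrl had 43645, 33217, 46010 and 36413 normalized reads in TG 2, TG 5, TG 6 and TG 8, against 45524, 45942, 37457 and 68255 in WT 3, WT 4, WT 5 and WT 7. Apart from WT 7, the libraries of both groups shared the range of 33217 to 46010. Between the groups, the log2 fold change was -0.28 ± 0.18 (SE, n = 4 each; 95% interval -0.67 to 0.10; adjusted p = 0.92, limma), and ran from -0.40 without WT 5 to -0.12 without WT 7. This value was -0.17 with males only and -0.37 with sex as a term.

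Nr2e3, which works with Nrl and keeps cone genes silent in rods, lies on chromosome 9 from 59942771 to 59960661. It had 23040, 18722, 27987 and 17737 normalized reads in TG 2, TG 5, TG 6 and TG 8, against 21858, 20089, 26579 and 31888 in WT 3, WT 4, WT 5 and WT 7. WT 7 was again highest, and TG 6 second. For Nr2e3, the log2 fold change was -0.20 ± 0.18 (SE, n = 4 each; 95% interval -0.58 to 0.18; adjusted p = 0.92, limma), and ran from -0.33 without TG 6 to -0.077 without WT 7. Without TG 6 and WT 3 together it was -0.38, with males only -0.13 and with sex as a term -0.27. The predicted gene Gm7616 overlaps the feature, with an average of 107 normalized reads in TG and 84.5 in WT.

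Esrrb, an orphan receptor that Nrl switches on and that rods need to survive, had the lowest fold change of the set. Its feature spans chromosome 12 from 86361116 to 86521628. It had 2933, 1908, 1255 and 1744 normalized reads in TG 2, TG 5, TG 6 and TG 8, against 2619, 4459, 1799 and 3527 in WT 3, WT 4, WT 5 and WT 7. TG 6 and TG 8 were below all WT libraries, WT 4 and WT 7 above all TG libraries, and the others were mixed. The mean was 1960 ± 706 in TG and 3101 ± 1148 in WT (SD, n = 4 each). This gave a log2 fold change of -0.65 ± 0.28 (SE; 95% interval -1.26 to -0.04; unadjusted p = 0.038, adjusted p = 0.92, limma). It ran from -0.88 without WT 5 to -0.45 without WT 4. With males only, which leaves out TG 6, TG 8 and WT 7, it was -0.22, and with sex as a term -0.59.

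Of the cone factors, Thrb drives the green opsin gene through its beta 2 isoform, which the table does not separate from beta 1. Its feature spans chromosome 14 from 17826893 to 18038088. Thrb had 209, 63.4, 90.2 and 82.9 normalized reads in TG 2, TG 5, TG 6 and TG 8, against 107, 182, 68.7 and 132 in WT 3, WT 4, WT 5 and WT 7. It spanned 3.30-fold over the 8 libraries, with TG 2 and WT 4 highest. The log2 fold change of -0.21 ± 0.43 (SE, n = 4 each; 95% interval -1.13 to 0.72; adjusted p = 0.97, limma) had no settled direction. It was -0.56 without TG 2, 0.0090 without TG 5, 0.011 without WT 4 and 0.062 with males only.

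Rxrg, the partner of Thrb in cones that holds down blue opsin, spanned 1.44-fold over the 8 libraries, the narrowest span of the set. Its feature spans chromosome 1 from 167598362 to 167639623. It had 406, 304, 437 and 392 normalized reads in TG 2, TG 5, TG 6 and TG 8, against 363, 357, 340 and 375 in WT 3, WT 4, WT 5 and WT 7. Of the TG libraries, 3 lay above every WT library and TG 5 below every one. TG against WT, Rxrg stood at 0.088 ± 0.20 on the log2 scale (SE, n = 4 each; 95% interval -0.35 to 0.52; adjusted p = 0.97, limma), from 0.022 without TG 6 to 0.20 without TG 5, and at -0.0093 with males only.

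The lowest library was a TG library for all 10 genes and for 54.5% of all features tested, and no WT library was the lowest for any of the 10. The highest was a TG library for 4 of the 10 and a WT library for 6, against 48.5% and 51.5% of all features. WT 7 was the highest library for 4 of the 10 genes, Crx, Nrl, Nr2e3 and Rorb, and for 16.5% of all features tested. TG 8 was the lowest for 4, Crx, Nr2e3, Neurod1 with Cerkl and Mef2d, and for 15.5% of all features. TG 5 was the lowest for another 4, Nrl, Rorb, Thrb and Rxrg, and for 7.11% of all features. Otx2 ran against Crx in several libraries. On the log2 scale and relative to the mean of 8 libraries, Otx2 stood at 0.29 and Crx at -0.17 in TG 6, and Otx2 at -0.27 and Crx at 0.51 in WT 7.

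**Figure D4:**
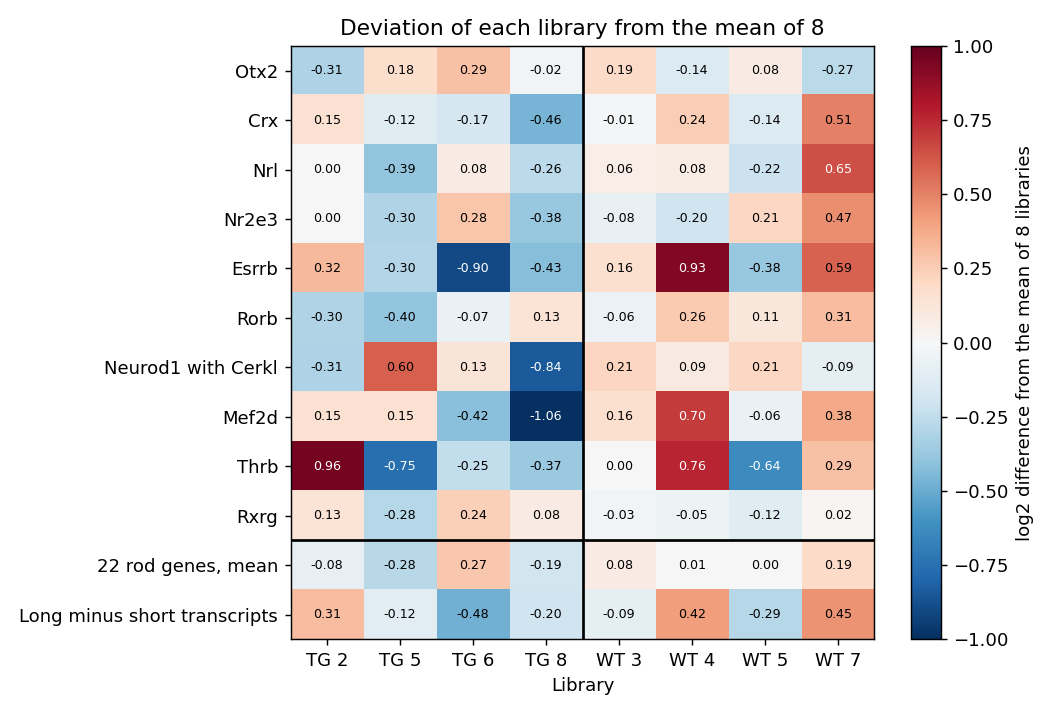
Log2 difference of each library from the mean of the 8 libraries for the 10 genes (upper rows), for the mean of 22 rod genes and for the level of long against short transcripts (lower rows), TG libraries left of WT libraries. Esrrb stands at -0.90 in TG 6 and 0.93 in WT 4, where the bottom row stands at -0.48 and 0.42.

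The level of long transcripts differed between libraries and moved with several of the 10 genes. It was taken as the mean log2 level of 3528 features with a transcript of at least 5000 bases, less that of 2103 features of at most 1500 bases, each relative to the mean of 8 libraries. It stood at 0.31, -0.12, -0.48 and -0.20 in TG 2, TG 5, TG 6 and TG 8, against -0.09, 0.42, -0.29 and 0.45 in WT 3, WT 4, WT 5 and WT 7. TG 2, WT 4 and WT 7 were thus the libraries rich in long transcripts, and these 3 were also highest for Esrrb, for Thrb and for Crx. The same 3 were lowest for Otx2. The median log2 fold change was -0.16 over the long features and 0.06 over the short ones. With this level as a term beside genotype, the log2 fold change was -0.28 for Esrrb, -0.38 for Mef2d, -0.14 for Crx and 0.16 for Thrb. That of Otx2 was -0.081, while Rorb stayed at -0.31 and Nr2e3 at -0.21. Neurod1 with Cerkl moved away from 0, to -0.29 from -0.21 without the term. Nrl stood at -0.18 and Rxrg at 0.091. This term was added after the values had been seen, and none of the 10 genes passed with it. The 10 genes were left out of both length classes. Of them, Rorb (9293 bases), Thrb (6200) and Mef2d (5401) have a transcript of at least 5000 bases. Esrrb (4300), Crx (2919), Nr2e3 (2686) and Otx2 (2592) do not. The part of transcript length or RNA quality in the levels of the 10 genes was not tested.

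**Figure D5:**
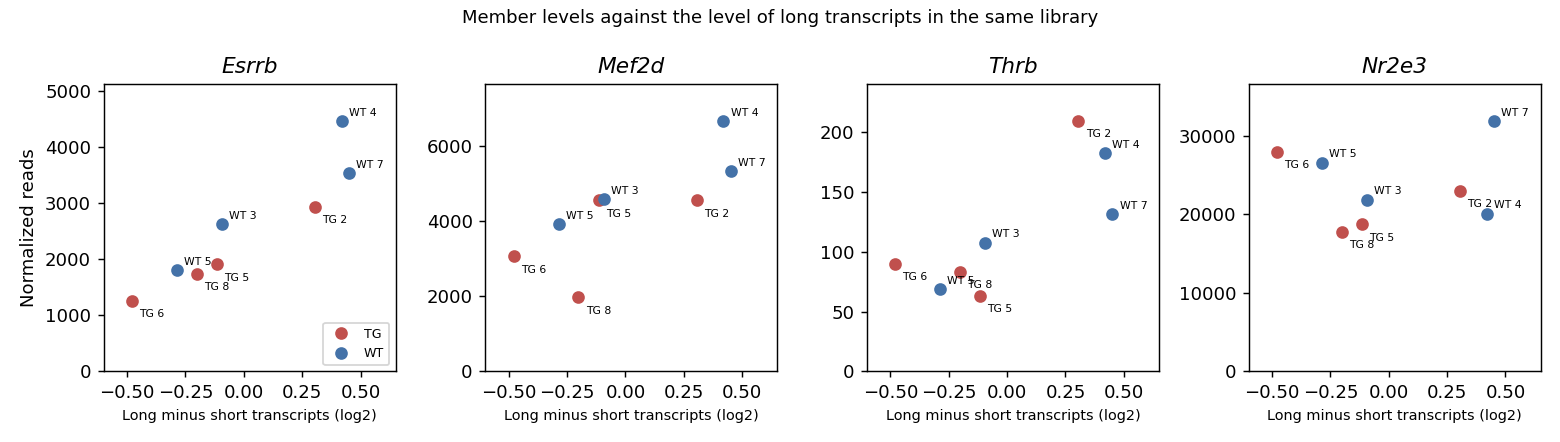
Normalized reads (vertical axis, from 0) of Esrrb, Mef2d, Thrb and Nr2e3 against the level of long minus short transcripts (log2, horizontal axis) in the 4 TG and 4 WT libraries. Esrrb is highest in TG 2, WT 4 and WT 7, the 3 libraries at 0.31 or more on the horizontal axis, and lowest in TG 6 at -0.48, while Nr2e3 is highest in TG 6 and WT 7.

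The genes that these factors switch on in rods were read next. Of 22 rod genes, 16 lay below 0 and 6 above, 0 passed in either direction, and the median log2 fold change was -0.09. Cngb1, a subunit of the light-sensitive channel, had 40684 ± 9019 normalized reads in TG and 54370 ± 4188 in WT (SD, n = 4 each; log2 fold change -0.44 ± 0.15, SE). Rp1, a protein of the outer segment axoneme, had 1220 ± 682 in TG and 2594 ± 1361 in WT. The transducin subunit gene Gngt1 and the phosphodiesterase gene Pde6a stood at -0.41 and -0.25 on the log2 scale, and none of these 4 passed (adjusted p = 0.92 each, limma). Rp1 and Pde6a were highest in TG 2, WT 4 and WT 7, the libraries rich in long transcripts, which Cngb1 and Gngt1 were not. Rp1 had 2190, 3185 and 4218 normalized reads in these libraries and 610 to 1730 in the others.

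The mean log2 level of the 22 rod genes was 16.7, 16.5, 17.0 and 16.6 in TG 2, TG 5, TG 6 and TG 8, against 16.8, 16.8, 16.7 and 16.9 in WT 3, WT 4, WT 5 and WT 7. With it as a term beside genotype, the log2 fold change was -0.015 for Nr2e3, -0.12 for Nrl and -0.24 for Crx. That of Esrrb was -0.76 and that of Mef2d -0.62 with the same term. These 22 genes are ones that the factors switch on, so the term is no measure of rod number apart from the factors. The part of rod number in these levels was not tested.

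Of 12 cone genes, 7 lay below 0 and 5 above, 0 passed, and the median log2 fold change was -0.23. The green opsin gene Opn1mw, the target of Thrb, had 10552 ± 2755 normalized reads in TG and 15130 ± 4766 in WT (SD, n = 4 each; log2 fold change -0.51 ± 0.22, SE). The cone phosphodiesterase subunit gene Pde6h stood at -0.42 ± 0.19, the channel gene Cnga3 at -0.35 ± 0.19 and the transducin gene Gngt2 at -0.33 ± 0.19, with an adjusted p of 0.92 each (limma). Of the 5 above 0, the blue opsin gene Opn1sw had 11978 to 24111 normalized reads in TG and 8626 to 22724 in WT (log2 fold change 0.37 ± 0.27, SE). Guca1a, a guanylate cyclase activator of rods and cones, had 172984 to 289865 in TG and 161410 to 204212 in WT (log2 fold change 0.27 ± 0.17, SE). Both had an adjusted p of 0.92 (limma) and were named after their values were seen.

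Proteins that work with Crx, Nrl and the nuclear receptors formed a further list of 12. Of these, 7 lay below 0 and 5 above, 0 passed, and the median was -0.07. Ep300, an acetyltransferase recruited by Crx, had 54.6 ± 45.9 normalized reads in TG and 119 ± 77.8 in WT (SD, n = 4 each; log2 fold change -1.29 ± 0.61, SE). It had 121, 45.8, 14.8 and 37.1 normalized reads in TG 2, TG 5, TG 6 and TG 8, against 106, 233, 63.4 and 75.1 in WT 3, WT 4, WT 5 and WT 7. Ncor1, a corepressor of nuclear receptors, stood at -0.58 ± 0.37, Atxn7, part of a Crx coactivator complex, at -0.53 ± 0.34, and the nuclear receptor coactivator gene Ncoa1 at -0.35 ± 0.25. The highest values of Ncor1, Atxn7 and Ncoa1 stood in TG 2, WT 4 and WT 7, the libraries rich in long transcripts. The genes named here had the lowest p of the list, and none of the 5 above 0 is among them.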

How the data were processed

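Poly(A)-selected RNA of 8 retinas was made into strand-marking libraries, per the labels' protocols. The deposited values are a signal, namely counts that the authors normalized with DESeq2, per the labels, by 1 size factor for each library, as the values show. The submitters' processing notes also name STAR 2.4.0, FastQC, Picard, SAMtools and mm10 (GRCm38). How reads were counted, with which annotation and whether by strand, the sources used here do not say. Every value was a whole multiple of its library's smallest positive one (100% within 0.01), so reads were recovered for the count tests.

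TG was compared with WT by limma 3.58.1 (R 4.3.3, trended prior variance) on log2(normalized reads + 1) for 19798 features (mean of 10 or more), with Benjamini-Hochberg adjustment over all of them. Because the values are not counts, edgeR 4.0.16 and DESeq2 1.42.0 on the recovered reads were alternatives, beside scalings, pseudocounts of 0.5 and 5, filters, sex, eye, males only, array weights, the rod gene level and leaving out each library. The long-transcript level, and leaving out WT 3 and TG 6 together, were added after the values were seen.

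The 10 genes and the 14 gene lists were chosen with earlier results of these data known. Genes named beside the 10 are features overlapping them with a mean of at least 10, up to 4 members of each list with the lowest p (up to 3 for other cell types), and the 2 plain symbols with a mean of at least 50 most correlated with each. Mlana, Opn1sw and Guca1a fall outside this rule and were named after their values were seen. Some genes the rule takes are not reported here. Depth sets counting error only, and 4 libraries per group limit the precision.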

Additional observations from a re-analysis of the deposited data

How the results depend on the processing

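The number of features passing an adjusted p of 0.05 was 2 with limma. It was 1 with sex as a term, no variance trend, a minimum mean of 50, no filter, a pseudocount of 0.5, the rod gene level as a term or the long-transcript level as a term, 4 with males only and 16 with DESeq2. It ran from 1 to 3 without any 1 library: 3 without WT 3, 2 without TG 6 or WT 7, and 1 without each of the other 5.

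Over 25 alternatives, 0 of 250 values of the 10 genes passed, with a lowest adjusted p of 0.61, and 10 had the opposite sign. With males only (2 TG and 3 WT libraries), the log2 fold change was -0.11 for Otx2, 0.062 for Thrb and -0.0093 for Rxrg. With sex as a term it was 0.072 for Otx2, -0.17 for Thrb and 0.045 for Rxrg. With the long-transcript level as a term it was -0.081 for Otx2 and 0.16 for Thrb. Without 1 library, it ran from -0.019 to 0.18 for Otx2, from -0.44 to 0.035 for Neurod1 with Cerkl and from -0.56 to 0.011 for Thrb. The cause of these changes was not tested. Scaling moved the median of all features between -0.018 and 0.030. No paired analysis was possible because the sources used here give no pairing of TG with WT samples. With 4 libraries per group, the 95% interval of Esrrb reached from a fold of 0.419 to 0.971, and that of Thrb from 0.455 to 1.65.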

Other observations

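Relatives of the 10 factors, which have other posts in the retina, were counted as a list of 18. Of these, 10 lay below 0 and 8 above, 0 passed, and the median log2 fold change was -0.022. Rxra, a second retinoid X receptor, had 250 ± 67.9 normalized reads in TG and 435 ± 128 in WT (SD, n = 4 each; log2 fold change -0.78 ± 0.29, SE; adjusted p = 0.92, limma). Mef2c, a relative of Mef2d, had 1093, 438, 562 and 350 in TG 2, TG 5, TG 6 and TG 8, against 747, 1114, 487 and 1136 in WT 3, WT 4, WT 5 and WT 7. Its highest values stood in TG 2, WT 4 and WT 7, the libraries rich in long transcripts. Mafa, a Maf-family relative of Nrl, was scarce, at 36.9 ± 19.0 in TG and 11.6 ± 6.86 in WT. Neurod2, a factor of amacrine cells, stood at 0.34 ± 0.20 on the log2 scale.

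Factors of other retinal cells were counted likewise. Of 18 tested members of a list of 20, 13 lay above 0 and 5 below, 0 passed, and the median was 0.09. Hes1, a Notch target of glia and progenitors, had 1466 ± 601 normalized reads in TG and 1019 ± 227 in WT (SD, n = 4 each; log2 fold change 0.48 ± 0.25, SE; adjusted p = 0.92, limma). Vsx1, a factor of cone bipolar cells, stood at 0.38 ± 0.22 on the log2 scale. For Hes1 and Vsx1 the highest library was TG 8, with 2363 and 2146 normalized reads. Ptf1a, a factor of amacrine and horizontal precursors, had 28.0 ± 22.4 in TG and 7.89 ± 5.22 in WT.

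Among markers of other cells, all 10 microglia genes lay above 0 and 0 passed, with a median of 0.42. Their sum was 37994 normalized reads in TG 5, and 22545, 23568 and 15666 in TG 2, TG 6 and TG 8. In WT it was 15578 to 23215. Of 9 Mueller glia genes, 6 lay above 0 (median 0.34), and of 9 ganglion cell genes 5 did (median 0.08). All 7 endothelial genes lay below 0 (median -0.51). Their sum was 3055 to 5921 normalized reads in TG, against 9917 in WT 7 and 3733 to 4982 in the other WT libraries, so those lay within the TG range. Of 6 tested myelin genes, 5 lay below 0 (median -0.41), with sums of 2048 to 2984 in TG, against 12890 in WT 3 and 1658 to 1875 in the other WT libraries. The myelin gene Mbp had 229 to 492 in TG, against 10093 in WT 3 and 224 to 356 in the other WT libraries. Of 8 lens genes, 7 lay above 0 (median 0.95), with sums of 119, 5528, 21501 and 467 in TG 2, TG 5, TG 6 and TG 8. Their sums were 25833, 804, 39.1 and 77.0 in WT 3, WT 4, WT 5 and WT 7. The pigment epithelium median was 0.04, that of bipolar cells 0.25 and that of amacrine and horizontal cells 0.22. None of these genes passed, and their part in the levels of the 10 factors was not tested.

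Genes whose level followed that of a factor most closely were taken from 12634 features by Pearson r over the 8 libraries, on the log2 scale, which share a library preparation and a normalization. Crx was closest to Madd (r = 0.99, Spearman rho = 0.98) and Hook1 (r = 0.99, rho = 0.98). Nrl was closest to Gkap1 (r = 0.94, rho = 0.88) and to the cone channel gene Cngb3 (r = 0.94, rho = 0.95), and Nr2e3 to Snx14 (r = 0.94, rho = 0.86). Otx2 was closest to Sdhaf2, a mitochondrial assembly factor (r = 0.98, rho = 0.90), and Rorb to Il20ra (r = 0.93, rho = 0.90). Esrrb was closest to Mllt1 (r = 0.99, rho = 0.98), Mef2d to Usp37 (r = 0.99, rho = 0.98), Thrb to Ntm (r = 0.96, rho = 0.95) and Rxrg to Kcng2 (r = 0.97, rho = 0.93). These are the highest of many correlations over 8 libraries and describe these libraries only.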
